A study of Homo sapiens with 8 samples.

Results

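The 4 HOX gene clusters were examined in peaks of chromatin accessibility measured with and without hyperosmotic stress. The 38 genes listed were taken with their RefSeq spans on GRCh38.p14, and each cluster was bounded by its first and last listed gene plus 20 kb on each side. Of 129536 peaks in the whole count table, 137 overlapped these intervals. The assay was Omni-ATAC-seq, which counts where a transposase can cut and tag the DNA of isolated nuclei. The cells were HEK293, a line derived from human embryonic kidney, and the genotype of all 8 libraries was eGFP-YAP, a fluorescently tagged form of the transcriptional co-activator YAP. Library titles name HEK293 alone, and whether the tagged line is a single clone is not given in the sources used here. Per the series text, cells went without serum for 1 h. The control group was 4 libraries of vehicle-treated cells, labelled 0 h. The stressed group was 4 libraries taken after 1 h of 0.2 M sorbitol, a sugar alcohol that makes the medium hyperosmotic and shrinks cells. If vehicle cells were not held for the same 1 h, time and sorbitol cannot be told apart. The labels do not say whether replicates were separate cultures, so p-values measure the spread between these libraries, which may be technical.

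HOX genes encode homeodomain transcription factors that give cells positional identity along the head-to-tail axis. Within each cluster they lie in a fixed order and on the same strand, with low-numbered (anterior) genes at the 3′ end and high-numbered (posterior) genes at the 5′ end, and they tend to be activated in that order during development. Polycomb group proteins keep inactive HOX genes closed, trithorax group proteins keep active ones open, and PBX, MEIS and PKNOX proteins bind DNA together with HOX proteins. Long non-coding RNAs and microRNAs are also transcribed from within the clusters.

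Library totals ranged from 14757015 to 19831471 counts in the vehicle group and from 11522266 to 14355727 in the sorbitol group. Per-library values are given in CPM, counts scaled to a library's own total. Fold changes come from the edgeR fit with library factors (trimmed mean of M-values, TMM). Those factors moved the median log2 fold change over HOX peaks to -0.23, from -0.15 with library totals alone. At peaks that changed little, CPM and fold change can therefore differ in direction. Vehicle 4 and sorbitol 4 held the extreme shares of counts on unplaced contigs, 2.18% and 1.53%. In these bulk libraries, openness in fewer cells and less openness per cell cannot be told apart. All 7 genes listed as open in kidney epithelial or any cultured cells had a peak within 1 kb, against 1 of 8 genes listed for other cell types. Peaks of the 7 genes ran from 1.33 CPM (KRT8, whose strongest had 5.52) to 88.0 CPM (GAPDH). The single peak of the other list, at PECAM1, had 1.2 CPM, near the weakest KRT8 peak.

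Promoter sequence is shown first for genes whose peaks the results turn on, as the 250 bases before the RefSeq start on GRCh38.p14, 5′ to 3′ on the gene's strand. Capitals mark the CCAAT box (CCAAT), the TATA box (TATAAA), the core bound by TEAD factors (GGAATG), the tonicity element (TGGAAANNNNNC) and a PBX-HOX site (TGATNNAT). Each was searched on both strands, and no search excluded overlaps with another. HOXA11, HOXA10 and HOXA13 are on the minus strand of chromosome 7 and HOXD11 is on the plus strand of chromosome 2.
HOXA11, chr7:27185233-27185482: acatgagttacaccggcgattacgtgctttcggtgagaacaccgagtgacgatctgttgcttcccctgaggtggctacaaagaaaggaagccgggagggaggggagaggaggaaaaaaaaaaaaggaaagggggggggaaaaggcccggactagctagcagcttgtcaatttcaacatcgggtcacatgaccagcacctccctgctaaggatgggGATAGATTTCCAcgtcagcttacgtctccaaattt
HOXA10 distal start, chr7:27179862-27180111: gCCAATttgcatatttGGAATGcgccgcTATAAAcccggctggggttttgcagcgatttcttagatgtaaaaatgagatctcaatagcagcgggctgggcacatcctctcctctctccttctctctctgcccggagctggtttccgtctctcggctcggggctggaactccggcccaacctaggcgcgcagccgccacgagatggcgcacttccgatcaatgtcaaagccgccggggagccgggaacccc
HOXA10 proximal start, chr7:27174321-27174570: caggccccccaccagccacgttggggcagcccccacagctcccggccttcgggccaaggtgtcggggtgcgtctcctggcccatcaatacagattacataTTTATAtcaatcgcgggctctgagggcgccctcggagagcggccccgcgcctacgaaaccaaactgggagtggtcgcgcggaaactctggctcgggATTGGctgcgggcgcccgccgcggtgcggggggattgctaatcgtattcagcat
HOXA13, chr7:27200092-27200341: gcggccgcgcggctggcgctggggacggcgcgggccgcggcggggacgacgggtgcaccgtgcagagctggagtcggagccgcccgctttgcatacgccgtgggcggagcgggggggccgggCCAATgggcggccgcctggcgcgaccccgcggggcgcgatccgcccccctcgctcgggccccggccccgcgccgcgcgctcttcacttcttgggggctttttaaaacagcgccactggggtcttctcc
HOXD11, chr2:176107030-176107279: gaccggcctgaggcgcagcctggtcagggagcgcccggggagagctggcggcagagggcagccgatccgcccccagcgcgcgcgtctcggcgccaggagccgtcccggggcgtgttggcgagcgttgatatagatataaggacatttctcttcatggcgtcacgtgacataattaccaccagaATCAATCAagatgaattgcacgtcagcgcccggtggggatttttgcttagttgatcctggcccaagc
Each of these windows overlapped a peak. The HOXA10 distal window held a CCAAT box, a TATA box and a GGAATG match, and the proximal window held a CCAAT and a TATA box. The HOXA13 window was the richest in G and C (78%, with 40 CpG dinucleotides) and held 4 matches to GGGCGG, the SP/KLF box, which are not capitalised. HOXA11 had the lowest GC content of the 5 (51.6%) and a tonicity element match.

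Promoter entries existed for 20 of the 38 genes, giving 26 distinct windows. Most were in HOXA, where HOXA3 alone had 7 starts, and HOXD. From HOXB there was only HOXB1, and from HOXC only HOXC4 and HOXC5, so the shares describe mainly HOXA and HOXD. CCAAT was present in 17 of 26 (65.4%) against 32.0% of 34943 promoters of the same length in the table. GGAATG was found in 7 (26.9% against 11.9%), TATAAA in 5 (19.2% against 10.8%) and TGATNNAT in 3 (11.5% against 6.49%). GGGCGG was found in 13 (50% against 42.5%) and the tonicity element in 1 (3.85% against 4.33%). The AP-1 site TGANTCA was in none of the 26, against 6.59% of all promoters. Median GC content was 58.8% against 58.0%, and the median window held 19.5 CpG dinucleotides against 11. These matches describe the letters only.

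At baseline the clusters were densely covered by open chromatin. HOXA had 39 peaks, or 2.79 per 10 kb, HOXC 37 (2.35), HOXB 43 (1.79) and HOXD 18 (1.26), where the median over 20037 protein-coding gene spans with the same flanks was 0.657. Summed vehicle accessibility was 4.28 ± 0.163 CPM per kb of interval in HOXA (SD, n = 4), 2.96 ± 0.126 in HOXC, 2.36 ± 0.0346 in HOXD and 1.66 ± 0.0929 in HOXB. The median gene span had 0.633 CPM per kb, and the clusters stood at percentiles 99.0, 95.9, 92.4 and 84.5 of gene spans. The vehicle libraries of the 4 clusters did not overlap: they ran from 4.08 to 4.46 in HOXA, from 2.78 to 3.05 in HOXC, from 2.31 to 2.39 in HOXD and from 1.56 to 1.75 in HOXB. The order was the same without flanks and with 50 kb flanks, where HOXA, HOXC, HOXD and HOXB had 3.15, 2.36, 1.66 and 1.44 CPM per kb. The clusters lie on different chromosomes and there was no input or copy number control. Copy number and openness therefore cannot be told apart in this order or in the percentiles.

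Single peaks were also stronger and wider than most tested peaks, though not when gene starts were compared with gene starts. The median HOX peak had 9.63 CPM in vehicle against 2.86 over all tested peaks, and a width of 521 bp against 400 bp. Above the genome-wide median lay 124 of 137 HOX peaks (90.5%), and 31 (22.6%) were in the strongest decile of all peaks. HOX start peaks had medians of 18.7 CPM and 739 bp, against 20.3 CPM and 1000 bp over all peaks within 1 kb of a gene start. Over 1 kb from gene ends, the HOX median was 6.9 CPM against 2.44 over all such peaks. HOXD combined the fewest peaks with the strongest single HOX peak.

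**Figure D1:**
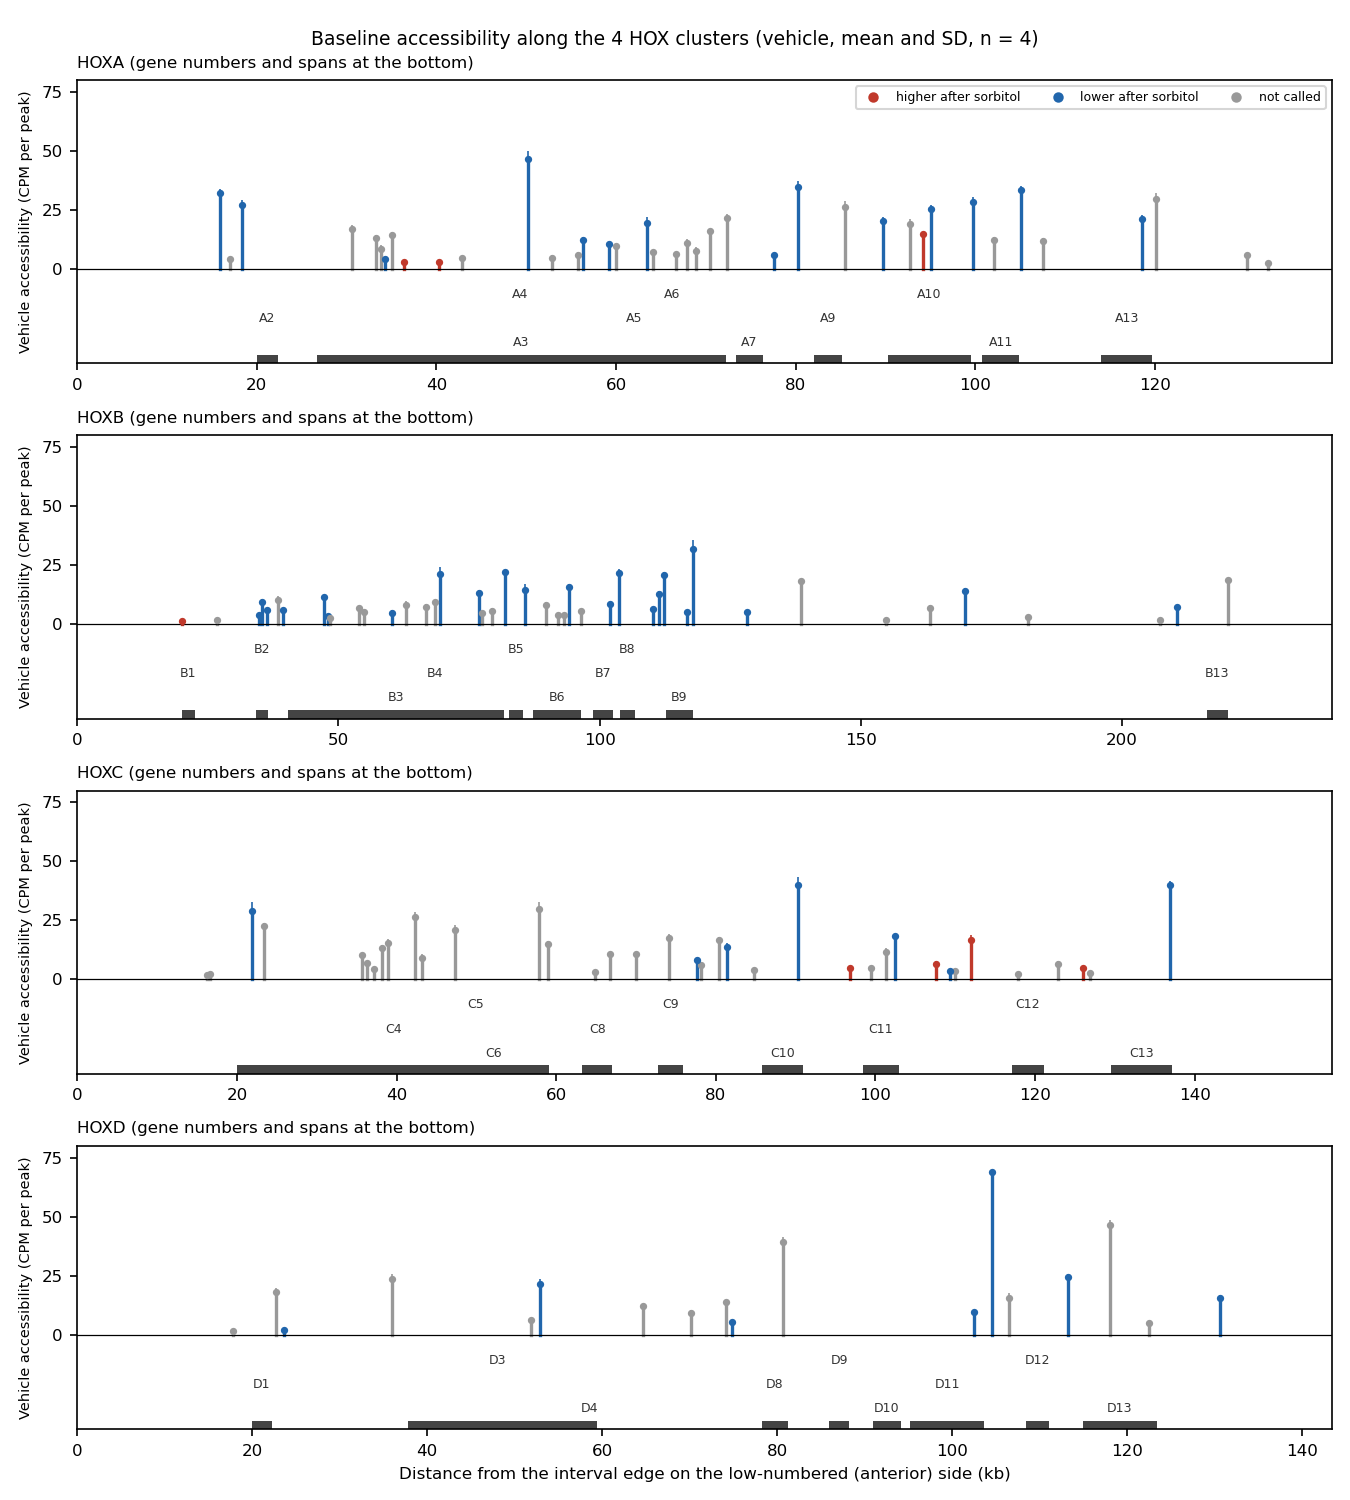
Vehicle accessibility of each of the 137 peaks (vertical axis, CPM, mean and SD of 4 libraries) against distance from the anterior edge of its interval (horizontal axis, kb), in 1 panel per cluster with gene spans at the bottom. Colours give the call after sorbitol, and the tallest stem is the HOXD11 start at 68.8 CPM.

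The strongest peak of all lay over the HOXD11 start (chr2:176105142-176107541), with 70.1, 67.6, 69.3 and 68.2 CPM in the vehicle libraries. HOXD13, a posterior gene needed for digit formation, followed within that cluster at 46.5 ± 2.04 CPM (SD, n = 4), and HOXD8 at 39.4 ± 2.12. In HOXA the strongest peaks were at the HOXA4 start (46.7 ± 3.1 CPM), between HOXA9 and HOXA7 (chr7:27159910-27161407, 34.6 ± 2.52) and at the HOXA11 start (33.4 ± 1.74). In HOXC they were at the starts of HOXC13 (40.2 ± 1.32) and HOXC10 (40.2 ± 3.35) and 597 bp from the shared start of HOXC4, HOXC5 and HOXC6 (29.9 ± 2.85). In HOXB they were at the starts of HOXB9 (31.7 ± 3.84) and HOXB3 (21.9 ± 1.04) and 759 bp from the HOXB7 start (21.8 ± 1.56), where the peak also overlapped an end of HOXB8. HOXB3 and HOXB7 differed by less than their spread, as did HOXC13 and HOXC10.

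A peak lay within 1 kb of the start of 28 of the 38 genes, by cluster 8 of 10 in HOXA, 8 of 10 in HOXB, 7 of 9 in HOXC and 5 of 9 in HOXD. Taking the strongest such peak of each gene gave 26 distinct peaks, since HOXC4, HOXC5 and HOXC6 share a listed start. No such peak was listed for HOXA2, HOXA7, HOXB1, HOXB8, HOXC9, HOXC12, HOXD4, HOXD9, HOXD10 or HOXD12. HOXD9 and HOXD10 both lay in the longest stretch between neighbouring HOXD peaks, 20.7 kb from the HOXD11 side to the HOXD8 start. The longest stretches between neighbouring peaks were 24.8 kb in HOXB (between HOXB13 and HOXB9), 11.6 kb in HOXC and 11.2 kb in HOXA. A gene without a listed start was placed by the end of its span, so an unlisted start elsewhere would be missed.

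After 1 h of sorbitol, accessibility over the HOX clusters was mostly lower. All 137 peaks entered the edgeR quasi-likelihood test, and 50 (36.5%) were lower and 8 (5.84%) higher at a Benjamini-Hochberg adjusted p under 0.05, where 13.1% of all 129487 tested peaks were lower, 16.0% higher and 29.1% called in either direction. The median log2 fold change was -0.23 (range -1.13 to 0.9), against 0.012 over all peaks, and 103 of 137 estimates were negative. All 4 sorbitol libraries lay below all 4 vehicle libraries at 29 peaks and above them at 13, where the shares over all peaks were 9.47% and 17.3% (26.8% in either direction). Only 2 HOX peaks changed at least 2-fold, both lower (6.15% of all peaks changed that much, 0.881% lower). Summed HOX accessibility was 1800 ± 66.4 CPM in vehicle and 1632 ± 31.5 in sorbitol (SD, n = 4), with libraries of 1714 to 1859 and 1585 to 1653 that did not overlap.

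How many peaks count as lower depends on the scaling. With TMM factors from peaks at gene ends, 24 HOX peaks were lower and 16 higher (median -0.053), and with factors from contig peaks 8 were lower and 0 higher, where 11.1% of all peaks were called. With library totals alone the split was 38 lower and 14 higher. The HOX median minus the all-peak median was -0.24 under TMM and under each of those 3 scalings. Such factors apply to a whole library and shift all peaks nearly alike, so this agreement could not test the difference. With an abundance-dependent loess offset, which can vary between peaks of a library, the difference was -0.15. By cluster it was then -0.062 in HOXA, -0.24 in HOXB, -0.057 in HOXC and -0.14 in HOXD. Under TMM these cluster differences were -0.2, -0.36, -0.17 and -0.27. The counts of lower peaks are thus relative to the rest of the table and do not measure an absolute loss.

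Across the genome, strong peaks and gene-start peaks were lower more often than others, and HOX peaks were stronger than most. By mean abundance in the fit, in the strongest 2 deciles 33 of 73 HOX peaks were lower (45.2%) against 35.7% of all peaks, 14 of 50 (28.0% against 13.3%) in deciles 6 to 8, and 3 of 14 (21.4% against 3.98%) in the weaker 5 deciles. Of peaks within 1 kb of any gene start, 37.3% were lower, 7.57% higher, with a median of -0.18. HOX peaks at starts had 22 of 43 lower, 2 higher and a median of -0.24. Over 1 kb from either end of any RefSeq gene, 16 of 67 HOX peaks were lower (23.9%) and 7 higher (10.4%), against 8.38% and 17.7% of all such peaks. How much of the HOX shift strength and gene starts carry was not tested.

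**Figure D2:**
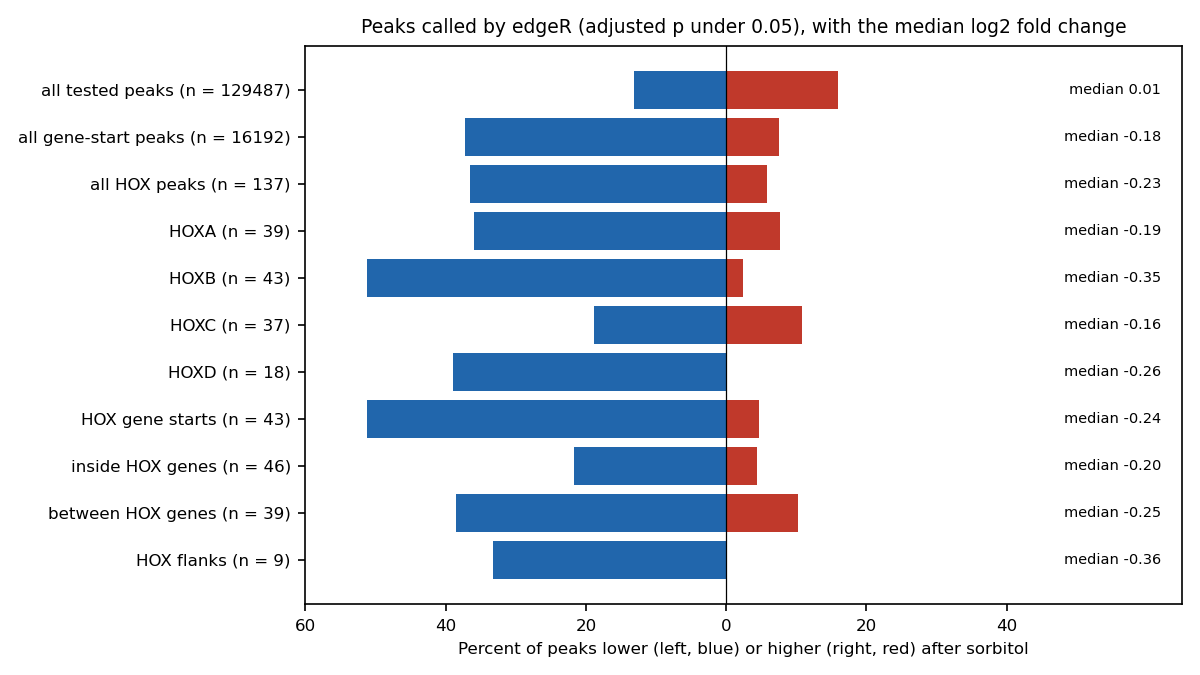
Percent of peaks lower (left) and higher (right) after sorbitol by edgeR at an adjusted p under 0.05, with the median log2 fold change at the right, for all tested peaks, all gene-start peaks, and HOX peaks by cluster and by place. HOXB and the HOX gene starts show the widest bars to the left, 51.2% each, against 13.1% over all tested peaks.

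The clusters differed in extent. HOXB had 22 of 43 peaks lower and 1 higher (median -0.35), HOXA 14 of 39 lower and 3 higher (-0.19), HOXD 7 of 18 lower and 0 higher (-0.26), and HOXC 7 of 37 lower and 4 higher (-0.16). Without vehicle 2 the HOXB count was 14, and without sorbitol 3 the HOXD count was 4. Summed accessibility fell from 1.66 to 1.38 CPM per kb in HOXB (a change of -16.9%), from 4.28 to 3.87 in HOXA (-9.56%), from 2.36 to 2.2 in HOXD (-6.76%) and from 2.96 to 2.83 in HOXC (-4.41%). Vehicle and sorbitol libraries did not overlap in HOXB (1.56 to 1.75 against 1.33 to 1.44), or in HOXA (4.08 to 4.46 against 3.75 to 3.95). They met at 2.31 in HOXD (2.31 to 2.39 against 2.07 to 2.31) and overlapped in HOXC (2.78 to 3.05 against 2.79 to 2.88). HOXB held 22.1 ± 0.515% of all HOX counts in vehicle and 20.3 ± 0.568% in sorbitol, and HOXC 25.9 ± 0.274% and 27.3 ± 0.387%, without overlap in either case. These shares do not depend on library scaling, whereas the difference in counts of calls between clusters was not tested.

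**Figure D3:**
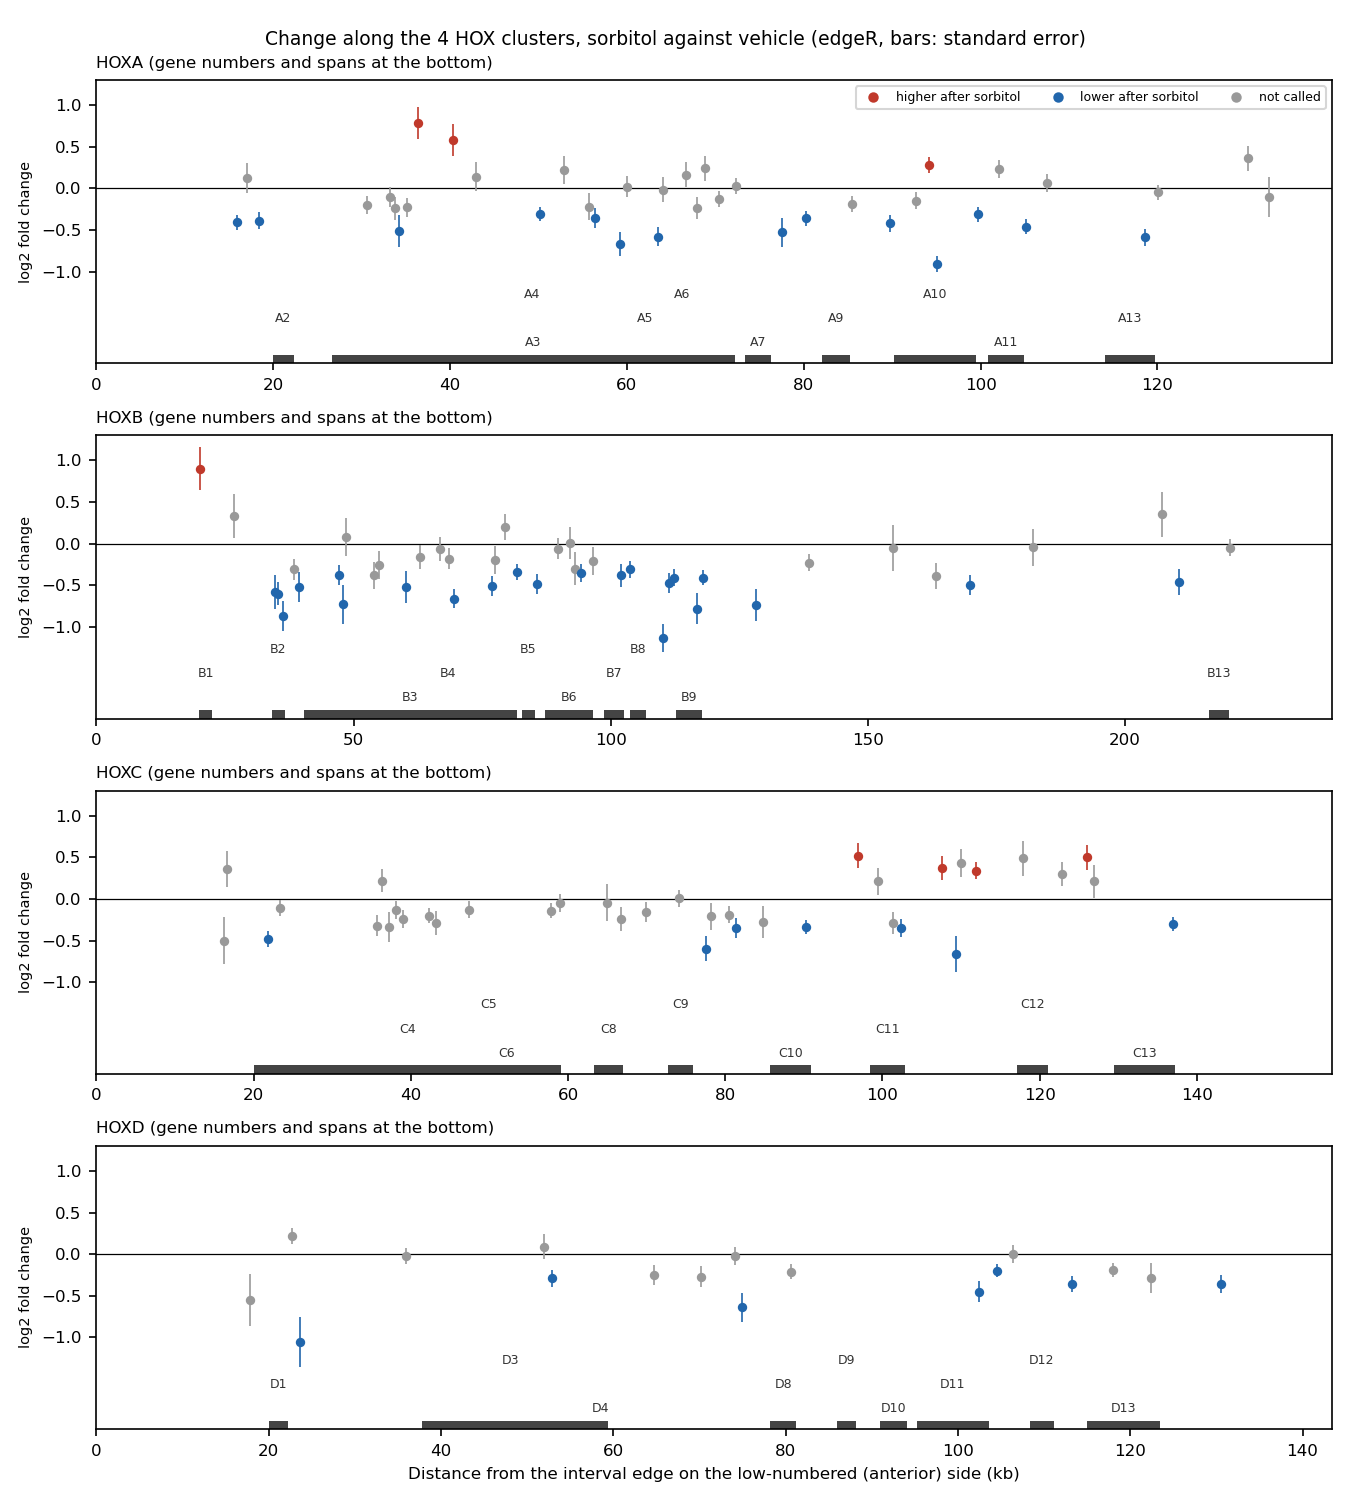
Log2 fold change of each peak, sorbitol against vehicle (vertical axis, edgeR estimate and standard error), against distance from the anterior edge of its interval (horizontal axis, kb), coloured by call, with gene spans at the bottom. Lower calls in HOXB lie among peaks that were not called, and the 4 higher HOXC calls lie on its posterior side.

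By position along the clusters, 13 of 33 peaks nearest to anterior genes (numbers 1 to 3) were lower, 17 of 53 nearest to central genes (4 to 8) and 20 of 51 nearest to posterior genes (9 to 13), with medians of -0.23, -0.24 and -0.2. Within the central genes, 9 of 18 HOXB peaks and 1 of 17 HOXC peaks were lower, a difference that was not tested. By place, 22 of 43 start peaks, 15 of 39 between genes, 10 of 46 inside genes and 3 of 9 in the flanks were lower.

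At the gene starts, the strongest start peak of each gene was lower for 15 of the 26 distinct peaks, higher for 0 and not called for 11 (median -0.29). Over all gene-start peaks 37.3% were lower and 7.57% higher, and in the strongest decile of all peaks 43.9% were lower. Taking the strongest peak of each gene left out the 2 HOX start peaks that were higher, at HOXA3 and HOXA10. It also left out lower ones, since 22 of all 43 HOX start peaks were lower. Among these was a peak near another HOXA3 start (-0.51, edgeR adjusted p = 0.0415). All 11 HOXB start peaks had negative estimates and 9 were lower. HOXB4, a gene that promotes self-renewal of blood stem cells, had 25.2, 21.3, 20.5 and 17.5 CPM in vehicle and 16.2, 12.7, 12.2 and 15.3 in sorbitol at its start (chr17:48577392-48578594). The groups did not overlap, and the log2 fold change was -0.66 (SE 0.11, edgeR adjusted p = 6.54e-06). HOXB2 changed by -0.60 (edgeR adjusted p = 0.000897), HOXB5 by -0.48 (0.00179), HOXB9 by -0.41 (0.000528), HOXB3 by -0.34 (0.00454) and HOXB7 by -0.31 (0.0112). The HOXB7 call was lost without vehicle 2 (-0.26, adjusted p = 0.0626). This HOXB2 peak lay 988 bp from the start, and the peak over the start changed by -0.87 (edgeR adjusted p = 0.000185). This HOXB7 peak lay 759 bp from the start, and the peak nearest the start, 194 bp away, changed by -0.38 (0.0361). HOXB6 (-0.21, adjusted p = 0.371) and HOXB13 (-0.048, 0.771), a prostate and hindgut gene, did not pass the edgeR test.

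In HOXA the starts of HOXA5 (-0.58, edgeR adjusted p = 5.71e-05), HOXA4 (-0.31, 0.00403) and the distal start of HOXA10 (-0.31, 0.00813) were lower, the last of these not without vehicle 2 (-0.24, adjusted p = 0.0667). HOXA11, needed for limb and uterus development, had 31.5, 35.4, 34.1 and 32.4 CPM in vehicle and 27.5, 25.8, 25.3 and 24.2 in sorbitol at its start (chr7:27184797-27186169). Every sorbitol library was below every vehicle library, and the change was -0.46 (SE 0.087, edgeR adjusted p = 5.25e-05). HOXA6 (-0.24), HOXA9 (-0.19), HOXA3 (0.03) and HOXA13 (-0.048) did not pass, although HOXA6 did without vehicle 4 (-0.35, adjusted p = 0.0281). In HOXC the starts of HOXC10 (-0.34, edgeR adjusted p = 0.00168), HOXC11 (-0.35, 0.00937) and HOXC13 (-0.30, 0.00463) were lower, and those of HOXC8 (-0.24) and HOXC4 to HOXC6 (-0.14) were not called. The HOXC4 to HOXC6 peak lay 597 bp from their shared listed start, and the peak over that start was not called either (-0.047). Inside HOXC4, 36735 bp from that start, a peak (chr12:54053623-54054758) was lower (-0.48, edgeR adjusted p = 0.000109). HOXC8 was lower without sorbitol 4 (-0.50, edgeR adjusted p = 0.00434), which had 13.4 CPM there against 7.49 to 8.77 in the other sorbitol libraries. In HOXD the HOXD3 start was lower (-0.29, edgeR adjusted p = 0.0222), though not without vehicle 1 (-0.22, adjusted p = 0.13) or sorbitol 3 (-0.27, 0.0572), while HOXD8 (-0.21), HOXD13 (-0.19) and HOXD1 (0.22) were not called. HOXD8 was lower without sorbitol 2 (-0.29, edgeR adjusted p = 0.0244) or sorbitol 4 (-0.27, 0.0211), HOXD13 was lower without sorbitol 4 (-0.23, 0.0336), and HOXD1 was higher without sorbitol 3 (0.28, 0.0465).

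Scaling ended many of these calls. Of the 15 lower start peaks, 6 stayed lower with the loess offset, 6 with gene-end factors and 1, HOXB4, with contig factors. With the loess offset and with gene-end factors the estimates were -0.13 and -0.14 at HOXA4 (edgeR adjusted p = 0.197 and 0.167) and -0.15 and -0.13 at the distal HOXA10 start (0.153 and 0.227). They were -0.21 and -0.17 at HOXB3 (edgeR adjusted p = 0.0613 and 0.131), -0.18 and -0.13 at HOXB7 (0.122 and 0.244), and -0.16 and -0.11 at HOXD3 (0.198 and 0.366). In HOXC, HOXC10 had -0.16 under both (edgeR adjusted p = 0.0961 and 0.0922), HOXC13 -0.12 under both (0.182 and 0.182), and HOXC11 -0.24 and -0.18 (0.0677 and 0.166), so no HOXC start was called under either. HOXD1 was higher under both (0.35 and 0.39, edgeR adjusted p = 0.00402 and 0.00126).

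The HOXD11 start passed narrowly: 64, 65.9, 58.1 and 66.1 CPM in sorbitol lay below the 4 vehicle values given above, with a change of -0.20 (SE 0.077, edgeR adjusted p = 0.0474). Of 18 other settings, 11 lost the call in the same direction, among them leaving out vehicle 1, 2 or 3 or sorbitol 1, 2 or 3, and 1 reversed the direction.

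**Figure D4:**
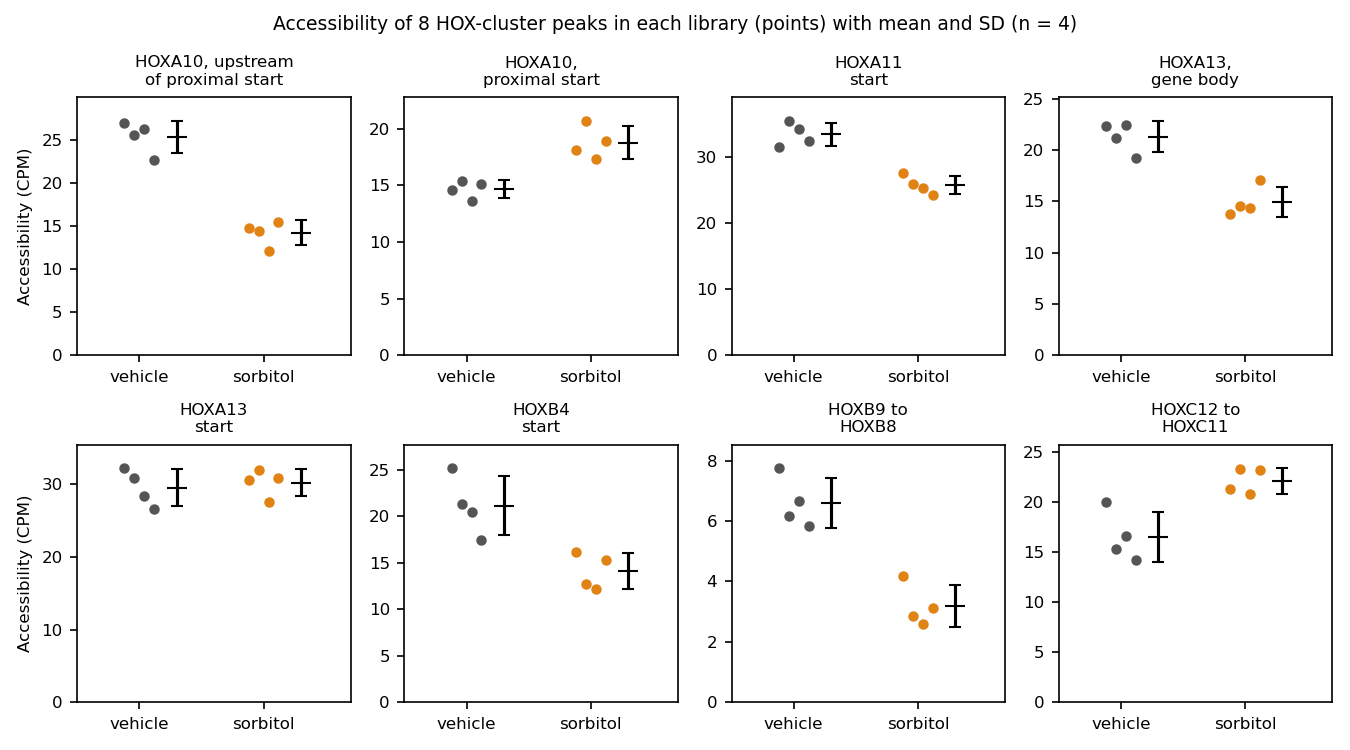
Accessibility (vertical axis, CPM from 0) of 8 HOX peaks in each of 4 vehicle and 4 sorbitol libraries (points), with mean and SD beside them. The groups overlap only at the HOXA13 start, where sorbitol libraries span 27.6 to 31.9 CPM and vehicle libraries 26.6 to 32.2.

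The smallest p-value among HOX peaks belonged to a 521 bp peak 827 bp upstream of the proximal HOXA10 start (chr7:27175147-27175667). HOXA10 is a posterior gene of the limb, uterus and blood lineages. Vehicle libraries had 26.9, 25.5, 26.2 and 22.6 CPM and sorbitol libraries 14.8, 14.4, 12.1 and 15.5, without overlap. The log2 fold change was -0.91 (SE 0.10, edgeR adjusted p = 7.01e-10), and it held the call in all 18 other settings, from -1.03 to -0.74. Only 342 bp away, the peak over the proximal start whose sequence is printed above (chr7:27174241-27174804) had 14.6, 15.4, 13.6 and 15.1 CPM in vehicle and 18.1, 20.7, 17.3 and 18.9 in sorbitol. Here every sorbitol library was above every vehicle library, with a change of 0.28 (SE 0.10, edgeR adjusted p = 0.0356), but the call was lost in 9 of 18 other settings, among them leaving out vehicle 1 or 3 or sorbitol 2 or 4. The ratio of the upstream to the start peak, which no library scaling affects, was 1.5 to 1.93 in vehicle and 0.696 to 0.823 in sorbitol. The start peak was singled out after its values were seen.

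A similar pair stood at HOXA13, a gene of distal limb and genital development. The peak inside the gene, 568 bp from the start (chr7:27198314-27199523), had 22.4, 21.2, 22.5 and 19.2 CPM in vehicle and 13.8, 14.6, 14.4 and 17.1 in sorbitol, a change of -0.59 (SE 0.10, edgeR adjusted p = 1.32e-05). The peak over the start itself (chr7:27199922-27200968) had 29.5 ± 2.51 CPM in vehicle and 30.2 ± 1.86 in sorbitol. Their ratio was 0.687 to 0.794 in vehicle and 0.452 to 0.557 in sorbitol, without overlap.

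Between HOXB9 and HOXB8 both peaks were lower. The smaller (chr17:48618653-48618899) had 7.75, 6.15, 6.66 and 5.83 CPM in vehicle and 4.17, 2.87, 2.6 and 3.13 in sorbitol. This was the largest fall of any HOX peak by fold, -1.13 (SE 0.17, edgeR adjusted p = 1.43e-06). The other HOX peak changed at least 2-fold lay next to HOXD1 (chr2:176187136-176187340), with 2.23, 1.95, 2.12 and 1.29 CPM in vehicle and 0.955, 1.11, 1.13 and 0.697 in sorbitol. Its change was -1.06 (SE 0.30, edgeR adjusted p = 0.00606), and its mean count over libraries was 22.1.

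Higher peaks were few. Within HOXA3, a peak at chr7:27116646-27116912 rose from 2.82, 2.59, 2.62 and 2.78 CPM to 5.03, 5.89, 4.6 and 4.18 (log2 fold change 0.78, SE 0.19, edgeR adjusted p = 0.00112). A neighbour near an alternative HOXA3 start (chr7:27120506-27120811) changed by 0.58 (edgeR adjusted p = 0.0164). Across the 3′ end of HOXB1, the most anterior listed HOXB gene, a peak at chr17:48528375-48528765 had 1.31, 1.49, 1.46 and 1.08 CPM in vehicle and 2.6, 3.58, 2.77 and 1.81 in sorbitol. Its change was 0.90 (SE 0.26, edgeR adjusted p = 0.00649), not called without sorbitol 2 (0.73, adjusted p = 0.0549), and its mean count over libraries was 28.0.

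The remaining 4 higher peaks all lay between HOXC13 and HOXC10. In that 38.6 kb stretch, chosen after its values were seen, 4 of 12 peaks were higher, 2 lower and 9 positive (median 0.32). The strongest higher peak (chr12:53963468-53964727, between HOXC12 and HOXC11) had 20, 15.3, 16.6 and 14.2 CPM in vehicle and 21.3, 23.3, 20.8 and 23.2 in sorbitol, a change of 0.34 (SE 0.10, edgeR adjusted p = 0.0087). Its ratio to the HOXC13 start, 0.36 to 0.489 in vehicle, was 0.616 to 0.662 in sorbitol. Without vehicle 4 and sorbitol 4 its call was lost (0.23, adjusted p = 0.0964). The others were at chr12:53978986-53979400 (0.52, edgeR adjusted p = 0.00795, or 0.0533 without sorbitol 1), chr12:53949751-53950252 (0.50, 0.00869) and chr12:53968175-53968667 (0.37, 0.0375).

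MicroRNAs of the miR-196 family lie within the clusters and repress HOX transcripts. Their mature sequences from RefSeq are shown with bases 2 to 8, the seed, in capitals.
miR-196a-5p: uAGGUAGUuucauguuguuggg
miR-196b-5p: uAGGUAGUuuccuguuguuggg
miR-10a-5p: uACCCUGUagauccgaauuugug
The miR-196 arms share the seed AGGUAGU and differ by A12C, counted from the 5′ end with the miR-196a base first. The nearest peak to MIR196B, 194 bp away (chr7:27169757-27170484), had 18.6, 21.4, 19.8 and 21.8 CPM in vehicle and 17.2, 15.9, 15.4 and 16.0 in sorbitol, a change of -0.42 (edgeR adjusted p = 0.000897). The nearest peak to MIR196A2, 354 bp away, was weak and not called (-0.28, adjusted p = 0.272). MIR10A and MIR196A1 had no peak within 1 kb, their nearest being 1244 and 3912 bp away.

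Non-coding genes of the clusters shared many of these peaks: 32 peaks lay within 1 kb of an end of 19 of 24 listed genes, 19 lower and 0 higher (median -0.35), and 16 genes had a lower peak. Of all peaks within 1 kb of a gene end, 32.8% were lower and 8.74% higher. HOTAIRM1, a myeloid-associated RNA beyond HOXA2, had lower peaks at both ends (-0.41 and -0.39, edgeR adjusted p = 0.000329 and 0.00144). HOTTIP and HOTAIR, at the HOXA13 and HOXC11 edges, shared the HOXA13 and HOXC11 peaks described above, and HOTAIR had another (chr12:53974450-53975021) that was not called (-0.29, edgeR adjusted p = 0.0795). Antisense transcripts cannot be told apart from HOX genes by accessibility. In the flanking list, PRAC2 near HOXB13 had the single peak, which was lower (-0.46, edgeR adjusted p = 0.0198).

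Regulators of HOX genes were examined within 1 kb of their starts (of either gene end where no start was listed). Trithorax group genes had 12 of 13 peaks lower and 0 higher (median -0.50), and all 9 genes had a lower peak. KMT2B, a histone H3K4 methyltransferase, changed by -0.68 (edgeR adjusted p = 9.68e-09), MEN1, a subunit of its complex, by -0.65 (5.19e-08), and RBBP5, a core subunit, by -0.64 (3.89e-07). Polycomb genes had 6 of 20 peaks lower and 0 higher (median -0.15), led by EZH1 (-0.70, edgeR adjusted p = 3.25e-08), SUZ12 (-0.59, 2.65e-05) and CBX8 (-0.59, 8.94e-05), whereas EZH2 changed by 0.026 (0.84). Cofactor genes had 5 of 12 peaks lower and 3 higher (median -0.21), with PKNOX1 (-0.47, edgeR adjusted p = 2.62e-05) and PKNOX2 (-0.60, 0.00195) lower and MEIS3 higher (0.68, 0.00519). Upstream regulators had 3 of 8 lower and 2 higher: RARA fell by 1.01 on the log2 scale (edgeR adjusted p = 1.09e-05) at its strongest change, and RARG rose by 0.40 (0.00401). These counts stand beside 37.3% lower and 7.57% higher over all gene-start peaks, and no list was tested as a set.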

How the data were processed

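Omni-ATAC-seq was measured in 4 vehicle and 4 sorbitol libraries. What the authors deposited is a single table of whole-number counts, 129536 peaks by 8 libraries. Per the submitters' processing notes, Trim Galore 0.6.10, BWA 0.7.17, SAMtools 1.22, Picard, MACS2 2.2.9.1, bedtools and DESeq2 were among the tools and hg38 was the build, with no parameters or order given. Whether reads or fragments were counted is not given in the sources used here. Table starts count from 0, so 1 was added to print 1-based positions.

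The table was fitted whole in R 4.3.3 with edgeR 4.0.16: filterByExpr (minimum count 10, minimum total 15) removed 49 peaks and left 129487, TMM gave the factors, the quasi-likelihood test had treatment as its only term, and p-values were adjusted by Benjamini-Hochberg over the 129487 and called under 0.05. The method was tested on simulated data, where weak peaks were recovered less often than strong ones, less often still by DESeq2. The requirement set for recovery over all peaks was missed by DESeq2 and was then replaced by one for strong peaks only. DESeq2 1.42.0 and limma 3.58.1 (loess offset) served in alternatives, with other factors, filters, thresholds, flanks, a replicate block and left-out libraries.

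Named peaks were the strongest peak within 1 kb of each listed gene's start, the 3 strongest per cluster, every called peak changed at least 2-fold, and the 5 of smallest p in each direction. Up to 3 regulators of smallest p were named per list and direction, except for an item that is not reported here. Peaks named beyond these rules were picked after seeing values. The members and lists were chosen with earlier results of these data known. Gene starts came from RefSeq promoter entries, or otherwise from the span's end on the cluster's strand. No genome was at hand, so sequence within peaks was not analysed here.

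Whether same replicate numbers mark paired libraries is not given in the sources used here. Deviations of same-numbered libraries from their group means correlated at 7.3e-05, 0.00647, -0.0309 and -0.132. This cannot settle the question, since most tested peaks are weak and counting error can hide a shared deviation. Counting error is small for strong peaks and larger for weak ones, and PCR copies counted without molecular identifiers would understate it.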

Additional observations from a re-analysis of the deposited data

Results flagged for a closer look

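Among 80 groups of 4 libraries at the named peaks, where chance alone gives about 4.0, 3 had a library far from the others. Sorbitol 4 had 18.6 CPM at the HOXC11 start, with the other sorbitol libraries at 13.7 to 14.0. Sorbitol 3 had 26.8 CPM at the shared start of HOXC4, HOXC5 and HOXC6, with the others at 29.4 to 29.6. Sorbitol 1 had 24.2 CPM at the HOXB13 start, with the others at 17.3 to 17.9.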

How the results depend on the processing

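For 41 named peaks under 18 settings, 635 of 736 comparisons kept their direction and side of the threshold, 69 lost the call, 16 gained it and 16 reversed. Relative to 50 lower, 8 higher and a median of -0.23, library totals gave 14 higher and -0.15, the loess offset a median of -0.16, gene-end factors 24 lower, 16 higher and -0.053, contig factors 8 lower, 0 higher and -0.28, a mean of at least 50 counts a median of -0.16, and a threshold of 0.01 33 lower and 5 higher. Leaving out vehicle 4 and sorbitol 4, an alternative chosen after seeing the data, gave 5 higher and a median of -0.27. Leaving out 1 library gave 37 to 53 lower, 5 to 9 higher (5 without sorbitol 2) and medians of -0.25 to -0.2.

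By cluster, lower counts were 8 (HOXA), 12 (HOXB), 2 (HOXC) and 2 (HOXD) with gene-end factors, and 2, 5, 0 and 1 with contig factors. HOXC had 3 with the loess offset. HOXD had 4 with library totals, 3 with the loess offset, 4 with a mean of at least 50 counts and 4 at 0.01, and HOXB had 13 at 0.01. Leaving out 1 library gave 11 to 14 in HOXA, 14 to 23 in HOXB (14 without vehicle 2), 5 to 9 in HOXC and 4 to 9 in HOXD (4 without sorbitol 3). The HOXC median turned to 0.013 with gene-end factors. Baseline CPM per kb without flanks was 5.28, 1.99, 3.94 and 3.1 in HOXA to HOXD, and 3.15, 1.44, 2.36 and 1.66 with 50 kb flanks.

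Reversals came at peaks near 0 or narrowly called. The HOXC4 start turned to 0.023 (loess) and 0.038 (gene-end), HOXB13 to 0.035 (totals), 0.083 (loess), 0.13 (gene-end) and 0.033 (mean of at least 50), HOXA13 to 0.035, 0.11, 0.13 and 0.033 under those settings, HOXD11 to 0.0083 (loess), and HOXA3 to -0.029 (contig), -0.025 without vehicle 4, -0.0096 without sorbitol 3, -0.012 without sorbitol 4 (leaving out 1 library gave -0.025 to 0.074) and -0.068 without vehicle 4 and sorbitol 4. The cause was not tested. With the replicate number as a block 46 HOX peaks were lower and 7 higher. Weak peaks limit what could be called.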
